A study of Mus musculus with 4 samples.

Results

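Neutrophil granule proteins are the antimicrobial proteins, proteases and metal-binding proteins that neutrophils, short-lived white blood cells, pack into vesicles while they mature in the bone marrow. The 10 genes described here, of 24445 in the expression table, encode 4 proteins of the azurophil granule (Mpo, Elane, Prtn3 and Ctsg) and 6 proteins of the specific granule (Ngp, Camp, Ltf, Lcn2, Cd177 and Chil3). They were chosen by their higher values in Tet2 KO in this same table, so the difference between the groups is given as a description and was not tested. Each gene was found by an exact match of its symbol, and all 10 were present.

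RNA was sequenced from primary myoblasts, the dividing muscle precursor cells, of C57BL/6 mice, with 2 libraries from WT animals and 2 from animals whose Tet2 gene lacked exon 3 in every tissue (Tet2 KO). Tet2 is an enzyme that oxidises methylated cytosine in DNA. Hindlimb satellite cells, the muscle stem cells, had been sorted as CD45-, CD11b-, CD31-, Sca1-, CD34+ and integrin alpha 7+, and both groups were then grown on collagen in proliferation medium with no further treatment. The methods give male animals aged 8 to 10 weeks as the general rule and no separate age for these libraries, and whether the libraries of a group came from separate animals was not stated. The table held 1 FPKM value for each gene and group (fragments per kilobase of transcript, scaled to the number of mapped fragments), taken here to combine the libraries of a group, so no value is given a standard deviation and no difference was checked against replicates here.

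Granule proteins are made in sequence. Azurophil granule genes are transcribed first, in promyelocytes, the early precursors, and specific granule genes later, in myelocytes and metamyelocytes. Gelatinase granules and secretory vesicles follow as the cell matures, and mature neutrophils contain the proteins while much of the granule gene transcription has ended. Transcription factors of the C/EBP family (chiefly C/EBPalpha and C/EBPepsilon) and the ETS family member PU.1 are known regulators of these genes. Skeletal muscle precursors are not known as a source of azurophil granule proteins, whereas Lcn2 and Chil3 are also made by other cells, Lcn2 by many inflamed epithelia and Chil3 by macrophages.

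The promoters were read first. The 10 genes lie on 7 chromosomes, and their shared direction in the expression data comes from how they were chosen. RefSeq promoters (build GRCm38.p6, 250 bases before to 50 after the gene start) were available for all 10 genes. Both strands were searched for the core of a C/EBP site, TTGCNNAA, and for GAGGAA, called the ETS core here. Shorter forms of an ETS site, such as GGAA, were not counted. Each of the 4 azurophil promoters held the ETS core and none held the C/EBP core, beside 28.3% and 10.8% of all promoters. The 4 are shown because they have this letter pattern in common, with every match in capitals. They lie on chromosome 11 from 87793534 to 87793833 (Mpo, plus strand), on chromosome 10 from 79886062 to 79886361 (Elane, plus strand) and from 79879417 to 79879716 (Prtn3, plus strand), and on chromosome 14 from 56102525 to 56102824 (Ctsg, minus strand), and are written 5′ to 3′ along the gene.
Mpo: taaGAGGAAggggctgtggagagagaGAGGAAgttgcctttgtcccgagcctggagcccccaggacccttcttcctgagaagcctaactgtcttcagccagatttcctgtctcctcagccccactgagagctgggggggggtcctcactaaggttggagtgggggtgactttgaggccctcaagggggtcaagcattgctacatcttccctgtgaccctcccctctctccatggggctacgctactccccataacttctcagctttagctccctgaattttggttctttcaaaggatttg
Elane: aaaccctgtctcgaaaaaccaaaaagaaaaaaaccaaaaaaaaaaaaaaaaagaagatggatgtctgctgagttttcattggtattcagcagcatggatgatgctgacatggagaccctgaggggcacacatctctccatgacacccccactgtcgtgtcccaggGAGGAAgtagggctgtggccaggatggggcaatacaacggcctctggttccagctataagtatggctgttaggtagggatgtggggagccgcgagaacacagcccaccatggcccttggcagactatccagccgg
Prtn3: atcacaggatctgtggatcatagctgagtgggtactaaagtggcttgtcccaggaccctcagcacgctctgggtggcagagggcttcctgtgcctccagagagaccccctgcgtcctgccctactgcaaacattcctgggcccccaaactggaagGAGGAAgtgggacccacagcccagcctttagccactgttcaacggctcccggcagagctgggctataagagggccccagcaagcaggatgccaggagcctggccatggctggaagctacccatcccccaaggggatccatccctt
Ctsg: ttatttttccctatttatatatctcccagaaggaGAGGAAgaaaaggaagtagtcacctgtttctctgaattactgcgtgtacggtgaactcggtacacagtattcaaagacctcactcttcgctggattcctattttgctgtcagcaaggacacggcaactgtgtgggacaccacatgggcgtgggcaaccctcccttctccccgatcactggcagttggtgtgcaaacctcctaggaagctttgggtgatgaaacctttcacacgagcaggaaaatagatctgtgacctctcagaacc

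The specific granule promoters were more varied. The C/EBP core was found in Ngp, Ltf and Lcn2, with 2 matches in Ngp, and the ETS core in Ltf, Lcn2 and Cd177. Camp and Chil3 held neither. Ngp (chromosome 9, 110419558 to 110419857, plus strand) and Ltf (chromosome 9, 111019042 to 111019341, plus strand) are shown as examples with the C/EBP core, again with matches of either core in capitals. A core on the opposite strand appears as its reverse complement.
Ngp: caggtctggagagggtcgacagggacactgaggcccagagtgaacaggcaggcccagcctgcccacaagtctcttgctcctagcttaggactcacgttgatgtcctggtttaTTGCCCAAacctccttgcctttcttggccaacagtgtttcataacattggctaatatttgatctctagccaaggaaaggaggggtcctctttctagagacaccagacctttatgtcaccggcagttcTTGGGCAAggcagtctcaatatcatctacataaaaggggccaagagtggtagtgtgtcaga
Ltf: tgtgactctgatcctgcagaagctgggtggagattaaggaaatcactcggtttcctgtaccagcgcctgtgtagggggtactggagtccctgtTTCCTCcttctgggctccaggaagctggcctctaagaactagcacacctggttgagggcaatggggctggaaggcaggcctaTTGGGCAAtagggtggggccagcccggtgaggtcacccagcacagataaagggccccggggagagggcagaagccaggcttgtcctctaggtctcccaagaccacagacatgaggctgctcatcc

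Over all 32851 promoters of the same table, 28.3% held the ETS core, 10.8% the C/EBP core and 2.92% both. No match of one core overlapped a match of the other in the 10 promoters. In Elane and Prtn3, neighbours on chromosome 10, the ETS core started at positions -85 and -95 from the gene start, on the same strand. A match describes letters only and does not show that a factor bound. Since Tet2 acts on methylated cytosine, CpG sites were also counted. The 10 promoters held between 2 (Mpo) and 8 (Ctsg) CpG sites in 300 bases, against a median of 7 and quartiles of 3 and 20 over all promoters. Methylation of these promoters was not measured here.

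In both groups the granule transcripts were present, and each had the higher value in Tet2 KO. The summed level of the 10 genes was 468 FPKM in Tet2 KO against 124 FPKM in WT, a 3.78-fold difference, and made up 0.0828% and 0.0218% of the summed FPKM of the table. All 10 genes were at least 2-fold higher on the log2(FPKM + 1) scale, where among the 11692 genes with a mean of at least 1 FPKM over both groups 2.08% were at least 2-fold higher and 1.21% at least 2-fold lower. The members were chosen on this difference, so nothing is read from their count. The median log2 ratio, log2((Tet2 KO FPKM + 1) / (WT FPKM + 1)), was 1.86 over the 10 genes and -0.0044 over the 11692 genes. Cd177 passed the level of 1 FPKM through its value in Tet2 KO, and the other 9 genes exceeded it in both groups.

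**Figure D1:**
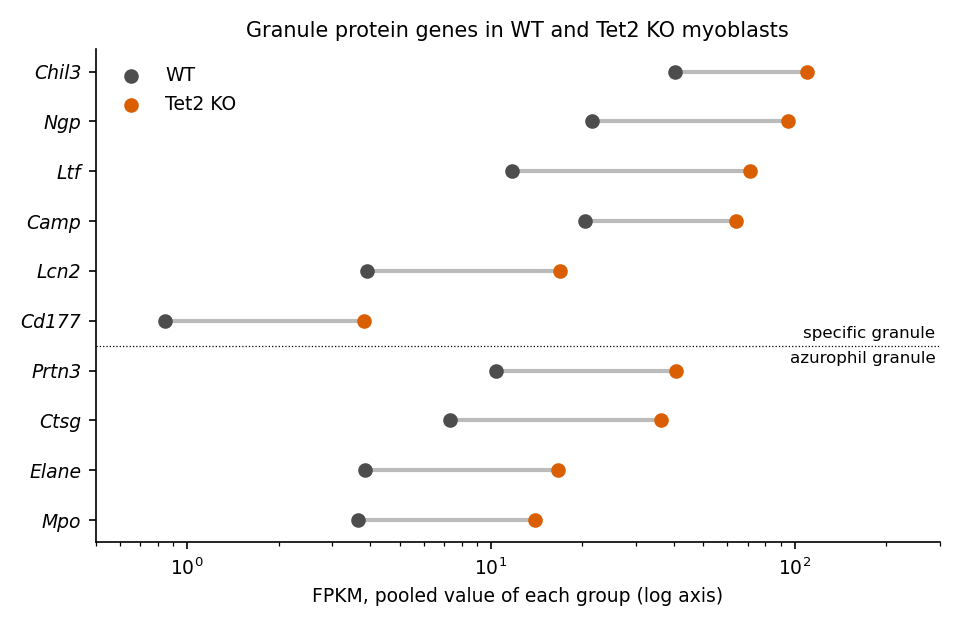
FPKM of the 10 granule protein genes on a log axis, with the pooled WT value in grey and the pooled Tet2 KO value in orange, joined by a line for each gene; there are no error bars because each group has 1 value. Every Tet2 KO value lies to the right of its WT value, from Cd177 at 0.847 and 3.83 FPKM to Chil3 at 40.3 and 110 FPKM.

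The azurophil granule genes were examined in turn, and where a pair of values has no group names the Tet2 KO value comes first. Mpo encodes myeloperoxidase, which makes hypochlorous acid from hydrogen peroxide and chloride and gives the granule its green colour. It lies on mm9 chromosome 11 from 87607286 to 87617914 and had 14.0 FPKM in Tet2 KO against 3.65 FPKM in WT. It had the lowest level and the smallest fold of the 4 azurophil genes, 3.83. Its relatives in the peroxidase family had small differences or low levels. Lactoperoxidase (Lpo) and eosinophil peroxidase (Epx), which lie within 3 genes of it on the chromosome, were below 0.05 FPKM in both groups, and peroxidasin (Pxdn), a matrix enzyme, had 22.2 and 20.1 FPKM.

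Elane, Prtn3 and Ctsg encode neutrophil elastase, proteinase 3 and cathepsin G, serine proteases stored in active form in the azurophil granule. Prtn3 (chromosome 10, 79342412 to 79345917) had 40.8 FPKM in Tet2 KO against 10.4 FPKM in WT, the highest azurophil level in each group. Elane (chromosome 10, 79349057 to 79350961) had 16.6 and 3.84 FPKM. The 2 genes lie 3139 bases apart with no gene of the table between them, and Prtn3 exceeded Elane 2.46-fold in Tet2 KO and 2.70-fold in WT. Ctsg (chromosome 14, 56718722 to 56721411) had 36.4 and 7.31 FPKM. Its 4.98-fold difference was the largest of the azurophil genes.

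The 3 protease genes share a layout of 5 exons in the GENCODE vM1 annotation of mm9. Their coding sequences are 798, 765 and 786 bases long for Elane, Prtn3 and Ctsg. In a global alignment 60.1% of positions were identical between Elane and Prtn3, 52.6% between Elane and Ctsg and 53.2% between Prtn3 and Ctsg. None of the 4 azurophil transcripts had a stretch of 50 or more bases with at least 95% identity elsewhere in the genome, so their fragments could be placed by sequence.

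The specific granule genes spanned a wider range of levels and of folds. Ngp, the neutrophilic granule protein, and Camp, the cathelicidin whose cleaved peptide kills bacteria, belong to the cathelicidin and cystatin-like proteins. Ngp (chromosome 9, 110322312 to 110325516) had 94.8 FPKM in Tet2 KO against 21.5 FPKM in WT. Camp (chromosome 9, 109749891 to 109751970) had 63.9 and 20.4 FPKM. The levels of this pair were nearly the same in WT, where Ngp was 1.05-fold above Camp, and 1.48-fold apart in Tet2 KO. Both genes have 4 exons, and 50.8% of aligned coding positions were identical.

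Ltf encodes lactoferrin and Lcn2 encodes lipocalin 2, proteins that withhold iron from bacteria by binding the metal itself or bacterial siderophores. Ltf (chromosome 9, 110921796 to 110945270) had 71.0 FPKM in Tet2 KO against 11.7 FPKM in WT. This 6.07-fold difference was the largest of the 10 genes. Lcn2 (chromosome 2, 32240157 to 32243259) had 16.9 and 3.91 FPKM, a 4.31-fold difference. Its levels were close to those of Elane, with a ratio of 1.02 in Tet2 KO and 1.02 in WT. The transferrin receptor gene Tfrc had 117 FPKM in each group. Slc22a17, which encodes a receptor for lipocalin 2, had 1.72 and 2.62 FPKM.

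Cd177 encodes a surface glycoprotein of neutrophils that binds proteinase 3, and Chil3 encodes Ym1, a secreted chitinase-like protein. Cd177 (chromosome 7, 25529002 to 25545330) was the lowest member, with 3.83 FPKM in Tet2 KO against 0.847 FPKM in WT. Its fold of 4.52 is understated on the log2(FPKM + 1) scale, where its log2 ratio was 1.39 against 2.18 without a pseudocount. Chil3 (chromosome 3, 105950472 to 105970482) was the highest member in both groups, with 110 and 40.3 FPKM, and had the smallest fold, 2.73. It is also the member with the least certain count, since 57.6% of its transcript has a copy of at least 95% identity elsewhere and its coding sequence is 94.4% identical to that of Chil4. Chil4 was listed at 0 in both groups. Cd177 had such a copy over 11.0% of its transcript, and the other 8 genes had none. Chil1, another chitinase-like gene that was named after its values were seen, had 4.57 and 2.55 FPKM, and Chid1, a chitinase domain gene, had 14.5 and 13.7 FPKM.

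**Figure D2:**
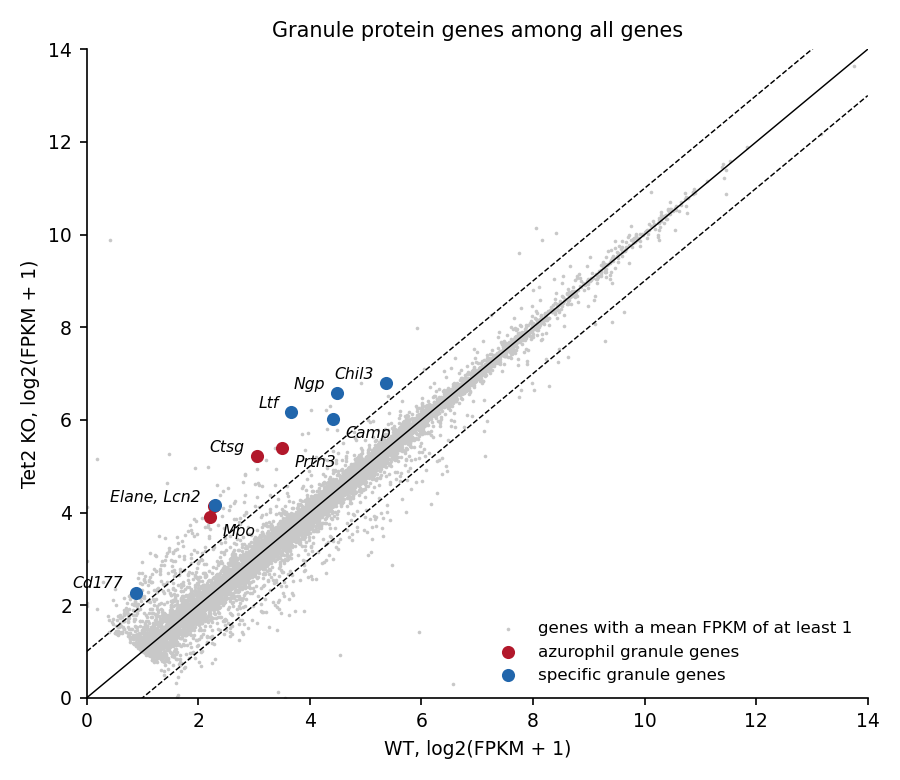
Log2(FPKM + 1) of Tet2 KO against WT for the 11692 genes with a mean of at least 1 FPKM (grey points), with the 4 azurophil genes in red and the 6 specific granule genes in blue; the solid line marks equal values and the dashed lines a 2-fold difference. The 10 genes lie above the upper dashed line, and 2.08% of all genes plotted do so.

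The order of the levels was nearly the same in both groups. In WT it ran from Chil3 through Ngp, Camp, Ltf, Prtn3, Ctsg, Lcn2, Elane and Mpo to Cd177. In Tet2 KO Ltf and Camp changed places, with Ltf 1.11-fold above Camp, against 0.574-fold in WT. The other 8 genes had the same rank in both. By log2 ratio Ltf ranked 10, Ctsg 15 and Ngp 17 among the 11692 genes, and Chil3 and Cd177 ranked 123 and 129. Without values per library, it is not known which neighbours in this order differed beyond the spread between libraries.

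Azurophil and specific granule genes were then compared as classes. The summed azurophil level was 108 FPKM in Tet2 KO against 25.2 FPKM in WT, a 4.28-fold difference. The summed specific granule level was 361 and 98.6 FPKM, a 3.66-fold difference. Azurophil transcripts made up 23.0% of the summed granule level in Tet2 KO and 20.3% in WT. Chil3 carried much of the specific granule sum, 32.6% of the 10-gene sum in WT and 23.5% in Tet2 KO. Without Chil3 the azurophil share was 30.1% in Tet2 KO and 30.2% in WT. The fold of the specific granule sum was then 4.30, beside 4.28 for the azurophil sum. The specific granule sum still held Ltf, whose fold of 6.07 was the largest, and the share without Ltf was not examined. The near-equal shares therefore hold for this set of genes only.

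The median log2 ratio was 1.87 for the azurophil genes and 1.73 for the specific granule genes, a difference of 0.14. Without a pseudocount the medians were 2.04 and 2.13, and the difference turned to -0.08, and with a pseudocount of 0.1 it was -0.04, so which class had the larger median depends on the pseudocount. Single azurophil genes ran from 1.69 (Mpo) to 2.17 (Ctsg) at a pseudocount of 1, inside the range of the specific granule genes, which ran from 1.39 (Cd177) to 2.50 (Ltf). The 2 classes overlapped, and the specific granule genes were the more spread, over 1.12 against 0.48 on the log2 scale.

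The depth behind these values can be read in part from the lowest FPKM of the table. Of 2014 genes with values above 0 and under 0.05 FPKM in both groups, 94 had the same ratio of Tet2 KO to WT when rounded to 3 decimals, 1.049. Taking these as genes with 1 fragment in each group, the 9 of them with a single annotated transcript of at least 2000 bases gave a median of 54.1 fragments per kilobase of transcript for 1 FPKM in WT, with quartiles of 53.9 and 54.9. On this scale the Cd177 values correspond to about 124 fragments in WT and 535 in Tet2 KO, and those of Elane to about 191 and 787. Chil3, at the upper end, corresponds to about 3354 and 8736 fragments. These counts are estimates for a group's single value, whose making from the libraries was not stated, and say nothing of the spread between libraries. The scale came from transcripts of at least 2000 bases and was applied to the full annotated length of each gene. Counts for shorter transcripts, such as that of Elane (920 bases), are therefore less certain and may be too high.

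The genes around each member were compared with it. The 3 nearest genes on each side gave 54 neighbours that are not members, 24 of them with a mean of at least 1 FPKM. Of these 24 none was 2-fold higher and none 2-fold lower on the log2(FPKM + 1) scale, beside 2.08% and 1.21% of all genes, and their log2 ratios ran from -0.32 to 0.28 with a median of 0.05. Among the other neighbours, with a mean under 1 FPKM, the highest log2 ratio was that of Ceacam10, beside Cd177, with 0.677 and 0.103 FPKM (log2 ratio 0.60), and it was named after its values were seen. Next to Ctsg, in a cluster of related serine protease genes, Mcpt8 had 65.9 FPKM in Tet2 KO against 62.9 FPKM in WT, Gzme 34.0 and 39.9 FPKM and Gzmd 9.09 and 11.6 FPKM. These genes, known for expression in basophils and in cytotoxic lymphocytes, were above 1 FPKM in both groups, with log2 ratios of 0.07, -0.22 and -0.32, where Ctsg had 2.17. Around Prtn3 and Elane, Ptbp1 had 134 and 121 FPKM and Med16 10.1 and 9.53 FPKM, and Cfd, which encodes the complement protease adipsin, had 0.132 FPKM in Tet2 KO but was listed at 0 in WT.

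**Figure D3:**
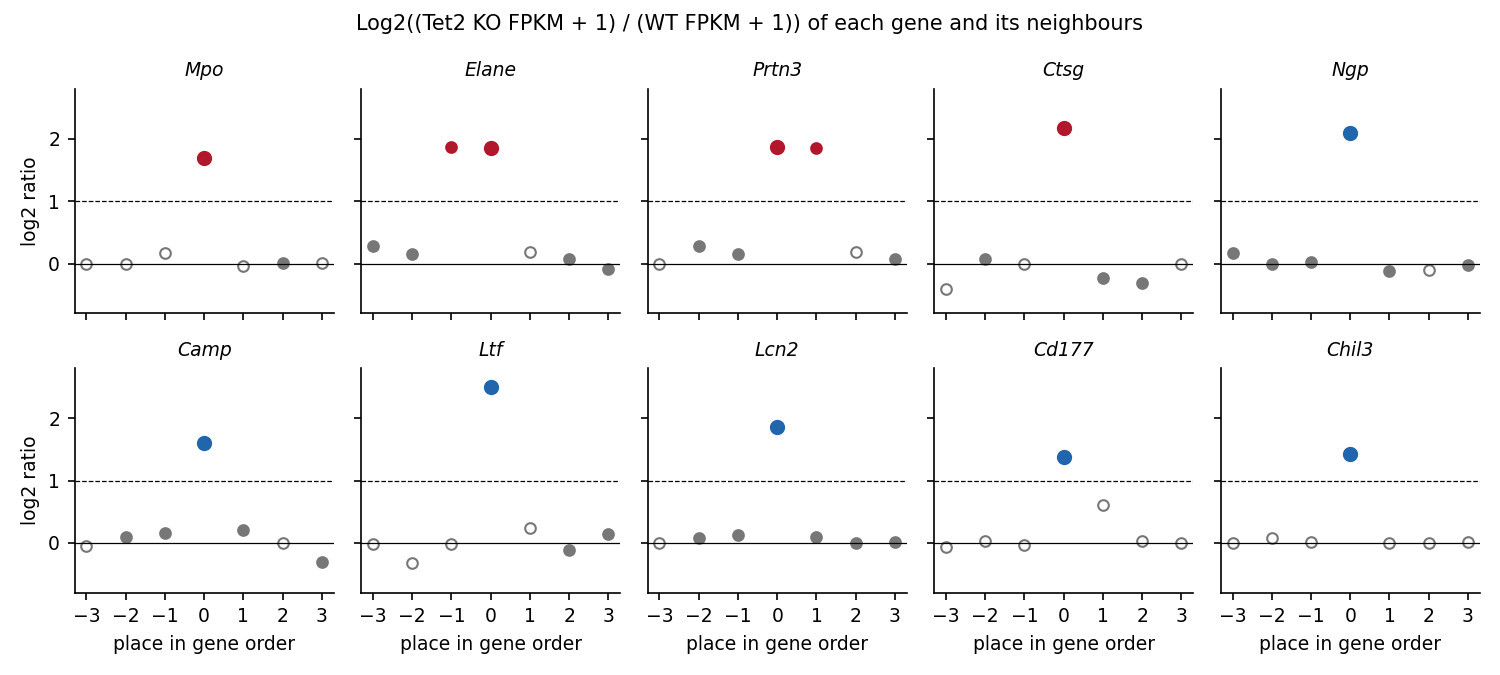
Log2 ratio of each granule protein gene (place 0) and its 3 nearest genes of the table on either side, in the order of the chromosome; coloured points are members, filled grey points are other genes with a mean of at least 1 FPKM and open points are genes below it. The members lie between 1.39 and 2.50, and filled grey points lie between -0.32 and 0.28.

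Camp, Ngp and Ltf lie in this order on chromosome 9, with 570341 bases and 10 genes between Camp and Ngp and 596279 bases and 21 genes between Ngp and Ltf. None of the intervening neighbours that were examined was past 2-fold on the log2(FPKM + 1) scale. Beside Ngp, Ptpn23 had 6.29 FPKM in Tet2 KO against 6.15 FPKM in WT and Klhl18 had 3.33 and 3.71 FPKM. Map4, on the Camp side, had 29.9 and 37.2 FPKM, a log2 ratio of -0.30. Lrrc2, on the Ltf side, was low, with 0.175 and 0.475 FPKM and a log2 ratio of -0.33.

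Other granule and neutrophil genes were taken from lists written with earlier results of these data known, and their 2-fold counts use the log2(FPKM + 1) scale throughout and stand beside 2.08% higher and 1.21% lower and a median log2 ratio of -0.0044 over all 11692 genes. Some listed genes passed the mean of 1 FPKM through the value of 1 group alone. Through Tet2 KO these included Stfa1 (0 FPKM in WT), Cebpe (0.864 FPKM in WT) and Rab27a (0.882 FPKM in WT). Mme (0.915 FPKM in Tet2 KO) and Tpsab1 (0.758 FPKM in Tet2 KO) passed through WT. Genes that entered through a high Tet2 KO value can raise the count and median of a list. Further azurophil proteins, many of which are lysosomal proteins of most cells, were less uniform. Of 14 genes 13 had a mean of at least 1 FPKM, 4 were at least 2-fold higher and 0 lower, with a median log2 ratio of 0.41. Ctsc, the protease that activates the azurophil serine proteases, had the highest log2 ratio, with 33.8 FPKM in Tet2 KO against 7.12 FPKM in WT. The others past 2-fold were Ms4a3, a gene of granulocyte and monocyte precursors (21.1 and 4.47 FPKM), Srgn, the proteoglycan core that holds granule proteins (19.9 and 6.12 FPKM), and Mgst1 (35.9 and 16.2 FPKM), which were named after their values were seen. Cd63, an abundant membrane protein of lysosomes and granules, had 559 and 567 FPKM, and Gaa, a lysosomal glucosidase, 11.5 and 15.1 FPKM. Bpi was below 0.02 FPKM in both groups.

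Of 16 further specific granule genes 15 were in the table and 13 had a mean of at least 1 FPKM. On the log2(FPKM + 1) scale 9 were at least 2-fold higher and 1 at least 2-fold lower, and the median log2 ratio was 1.47. Lyz2, lysozyme of myeloid cells, had 253 FPKM in Tet2 KO against 59.5 FPKM in WT. Slpi was the gene with the lower value, with 53.4 FPKM in Tet2 KO against 137 FPKM in WT, a log2 ratio of -1.35. It encodes a secreted inhibitor of elastase and cathepsin G and is also made outside neutrophils. Its direction was opposite to that of both genes whose products it inhibits, Elane and Ctsg.

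Genes of the later granules and of the neutrophil surface were compared next. In the gelatinase granule list 4 of 9 genes with a mean of at least 1 FPKM were at least 2-fold higher and 0 lower, with a median log2 ratio of 0.80. Arg1, arginase 1, had the highest log2 ratio, with 23.1 and 4.05 FPKM, and Cst3, cystatin C, a gene of most cells, had 186 and 182 FPKM. Mmp9, the gelatinase that names the granule, had 1.64 FPKM in Tet2 KO against 0.521 FPKM in WT, and Mmp25 was below 0.04 FPKM in both. Many genes of this list were low, and without a pseudocount its median was 1.57.

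In the secretory vesicle and surface list 7 of 9 genes were at least 2-fold higher and 0 lower, with a median of 1.57. Without the filter on low values the median over all 14 genes was 1.18. Fcgr3, an Fc receptor, had 24.3 and 5.98 FPKM, and Mme, a peptidase, had 0.915 and 1.25 FPKM. Ly6g, the antigen used to mark mouse neutrophils, had 5.86 FPKM in Tet2 KO against 1.30 FPKM in WT. Csf3r and Cxcr2, receptors that mark maturing and mature neutrophils, had 0.830 and 0.334 FPKM and 0.746 and 0.280 FPKM. The precursor genes Prtn3 and Ctsg had higher FPKM than Ly6g, Csf3r, Cxcr2 and Mmp9 in each group. In the other direction, Adam8 of the gelatinase list (23.0 and 9.40 FPKM) exceeded Ctsg in WT. The precursor genes Mpo (14.0 and 3.65 FPKM) and Elane (16.6 and 3.84 FPKM) were below Fcgr3, Arg1 and Adam8 in each group. Cst3, Lyz2 and S100a8 exceeded all 4 azurophil genes in each group. Levels of different genes do not measure the stage of the cells, which was not tested. Ly6g, Csf3r, Cxcr2, Mmp9 and Adam8 were named after their values were seen.

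Of 11 genes of the neutrophil cytosol 10 had a mean of at least 1 FPKM, 8 were at least 2-fold higher and 0 lower, with a median of 1.33. S100a8, one subunit of the calcium-binding pair calprotectin, had 941 FPKM in Tet2 KO against 285 FPKM in WT, which exceeded the summed level of the 10 granule genes in each group. Stfa1, a stefin protease inhibitor, had 6.77 FPKM in Tet2 KO but was listed at 0 in WT. Its paralog Stfa3 had 5.49 and 2.69 FPKM, and fragments of stefin genes may be divided among near-identical copies.

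The regulators of granulocyte formation had smaller ratios as a list. Of 10 with a mean of at least 1 FPKM 2 were at least 2-fold higher and 0 lower, with a median log2 ratio of 0.34. These were Spi1, which encodes PU.1 (6.71 FPKM in Tet2 KO against 1.57 FPKM in WT), and Cebpe, which encodes C/EBPepsilon, the factor known for specific granule genes (2.87 and 0.864 FPKM). Runx1 had 31.4 and 35.8 FPKM and its partner Cbfb 93.8 and 101 FPKM. Cebpa had 12.6 and 8.87 FPKM and Cebpb 59.3 and 48.6 FPKM, genes that are not restricted to blood cells. The other 4 of the 14 listed genes had a mean under 1 FPKM and do not enter the median. Among them Gfi1 had 1.23 FPKM in Tet2 KO against 0.261 FPKM in WT, a 4.71-fold difference, and Per3 had 0.831 and 0.916 FPKM. Cebpe, Cebpa, Cebpb, Gfi1 and Per3 were named after their values were seen.

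**Figure D4:**
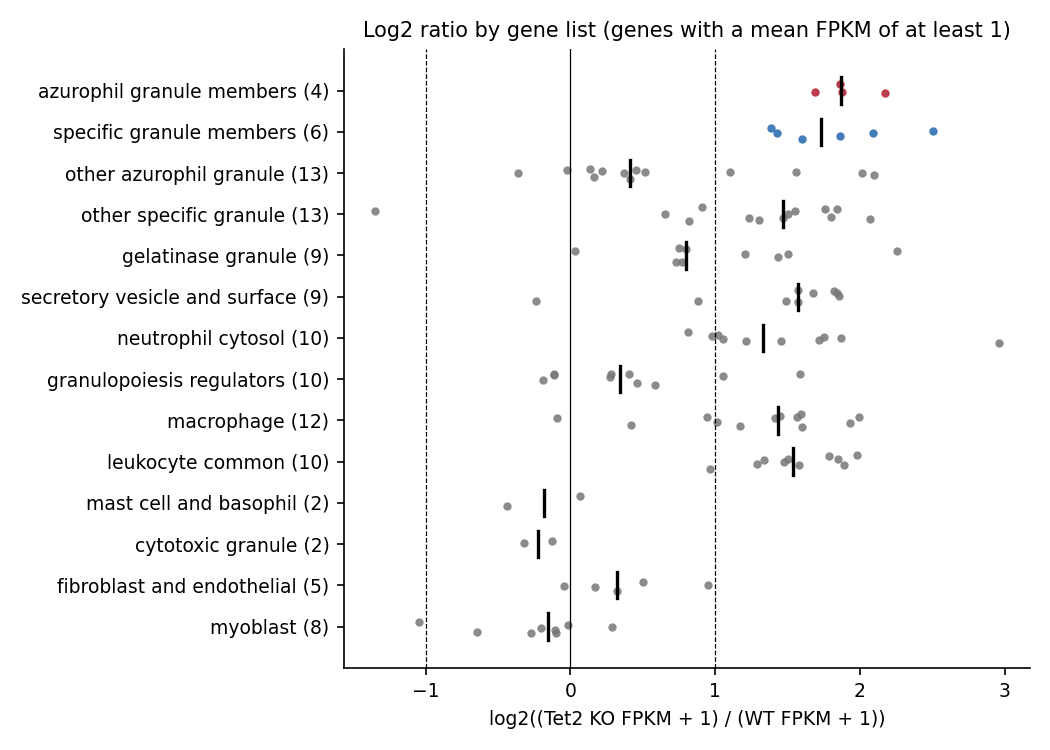
Log2((Tet2 KO FPKM + 1) / (WT FPKM + 1)) of single genes by list, for genes with a mean of at least 1 FPKM; each point is a gene, the black bar is the list median, the number in brackets is the number of genes and dashed lines mark 2-fold. The azurophil members (red) have a median of 1.87 and the specific granule members (blue) 1.73, the leukocyte common list has 1.54 and the myoblast list -0.15.

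Among the genes that process or hold back granule proteins, 13 of 17 had a mean of at least 1 FPKM, 4 were at least 2-fold higher and 1, Slpi, lower, with a median of 0.22. Ctsc headed the list. Hax1, a mitochondrial protein gene known from inherited neutropenia, had 93.4 and 98.7 FPKM. The circulating inhibitors Serpina1a, Serpina1b and A2m were listed at 0 in both groups. Rab27a, which brings granules to the membrane, had 3.08 and 0.882 FPKM and Serpina3g had 16.7 and 7.08 FPKM, both past 2-fold and named after their values were seen.

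Markers of leukocytes in general were higher in Tet2 KO too. The sort had removed cells with CD45 and CD11b, yet their genes Ptprc and Itgam had 5.67 and 10.1 FPKM in Tet2 KO against 1.36 and 2.09 FPKM in WT. In the leukocyte common list 9 of 10 genes were at least 2-fold higher and 0 lower, with a median of 1.54, and its 12 genes summed to 177 and 47.9 FPKM. Coro1a was highest (27.0 and 6.12 FPKM) and Laptm5 lowest (9.90 and 4.60 FPKM) by log2 ratio, and Tyrobp, an adaptor of myeloid receptors, was most abundant at 51.1 and 13.4 FPKM. In the macrophage list 9 of 12 genes were at least 2-fold higher and 0 lower, with a median of 1.43 and sums of 186 and 54.6 FPKM over 14 genes. Msr1 had 22.1 and 4.78 FPKM and Ctss 73.2 and 18.4 FPKM, with Cd163 and Cx3cr1 below 0.07 FPKM in both groups and no gene of either list at 0 in both. The part of these markers in the granule gene difference was not tested, and in bulk RNA fewer cells of a type and less RNA per cell cannot be told apart.

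Set against Ptprc within each group, several granule genes had nearly the same level in Tet2 KO and WT. Elane was 2.93 times Ptprc in Tet2 KO and 2.83 times in WT, Lcn2 2.98 and 2.88 times, Ngp 16.7 and 15.8 times and Cd177 0.676 and 0.624 times. Mpo at 2.47 and 2.69 times and Prtn3 at 7.19 and 7.65 times were also close, with the lower value in Tet2 KO. Ltf and Ctsg were higher on this scale in Tet2 KO, at 12.5 against 8.63 times and 6.42 against 5.39 times. Camp and Chil3 were lower, at 11.3 against 15.0 times and 19.4 against 29.7 times. Ptprc was low and unreplicated, and none of these differences was tested. Its own fold of Tet2 KO over WT was 4.18. Folds in the leukocyte common list, for genes with a mean of at least 1 FPKM, ran from 2.15 (Laptm5) to 4.41 (Coro1a). Set against another gene of that list, the ratios would differ.

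Lists of other blood cells were mostly at low levels. No eosinophil gene and no lymphocyte gene had a mean of at least 1 FPKM, and the highest values were 0.627 FPKM (Ear2) and 1.09 FPKM (Lck). Of the eosinophil list 2 genes, Prg3 and Ear10, were at 0 in both groups, and no lymphocyte gene was. In the mast cell and basophil list 2 of 12 genes reached that level, Mcpt8 and Tpsab1 (0.758 and 1.38 FPKM), and in the cytotoxic granule list Gzmd and Gzmm (1.03 and 1.22 FPKM). None of these 4 was past 2-fold. Of the erythroid and platelet list Pf4, platelet factor 4, which macrophages also make, had 27.6 and 6.18 FPKM, whereas the haemoglobin genes Hba-a1 and Hbb-b1 were at most 0.0985 FPKM in either group.

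The myoblast genes marked the labelled cell type at high levels in both groups. Myod1 had 313 FPKM in Tet2 KO against 336 FPKM in WT, and Des, desmin, 372 and 449 FPKM. Of 8 genes 1, Myog, was at least 2-fold lower (268 and 554 FPKM), 0 were higher, and the highest ratio belonged to Vcam1 (88.6 and 72.6 FPKM). Of the other sort markers Itga7 had 190 and 199 FPKM, Cd34 6.74 and 3.03 FPKM, Pecam1 (CD31) 1.48 and 1.63 FPKM and Ly6a (Sca1) 288 and 278 FPKM. The Sca1 gene was abundant at harvest in cells sorted without it. Of 5 fibroblast and endothelial genes with a mean of at least 1 FPKM none was past 2-fold on the log2(FPKM + 1) scale, from Dcn (7.04 and 3.15 FPKM, a log2 ratio of 0.95 there and a 2.23-fold difference without the pseudocount) to Egfl7 (4.65 and 4.82 FPKM), and Col3a1 had 171 and 152 FPKM. The targeted gene Tet2 had 5.79 FPKM in Tet2 KO against 6.64 FPKM in WT, a value over all its exons that does not show the deleted one.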

How the data were processed

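Total RNA of 2 WT and 2 Tet2 KO myoblast libraries (TruSeq) was sequenced. The authors trimmed adapters, removed low-quality reads, aligned them to mm9 with TopHat 2.0.13 and deposited 1 FPKM value per gene and group from Cuffdiff 2.2.1; the gene annotation is not given in the sources used here. The columns with the authors' own log2 ratio, statistic, p-value and q-value were not used.

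The 10 genes and all lists were chosen with earlier results of these data known. Log2 ratios used a pseudocount of 1, lists used genes with a mean of at least 1 FPKM, and a 2-fold limit was applied with no test, since each group has 1 pooled value. Genes named from lists had the highest or lowest log2 ratio or the highest level; others are marked, and 1 gene that this rule names is not reported here. The functions were tested on simulated data. Starts had 1 added. Gene structure came from GENCODE vM1 (mm9; Chil3 stands there as Chi3l3), copies from BLAST+ 2.17.0 and promoters from RefSeq (GRCm38.p6, matched by symbol, 10 of 10). Python 3.11.15, numpy 2.4.6, pandas 2.3.3 and matplotlib 3.10.9 were used.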

Additional observations from a re-analysis of the deposited data

How the results depend on the processing

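No paired analysis was possible because the libraries of a group share 1 pooled FPKM value, and for the same reason no replicate could be left out. Alternatives were a pseudocount of 0.1 or none, no filter or a mean of at least 5 FPKM, TPM, median centring, limits of 1.5-fold and 3-fold, and the azurophil share without Chil3. Over these the median log2 ratio ran from 1.86 to 2.11 for the 10 genes, from 1.87 to 2.04 for the azurophil genes and from 1.73 to 2.13 for the specific granule genes, and the difference between the classes from -0.08 to 0.14, and below 0 with a pseudocount of 0.1 (-0.04) or none. The number of all genes past the limit moved by more than 1.5 times from 243 higher and 142 lower to 215 lower with a pseudocount of 0.1, 224 lower with none, 109 higher at a mean of at least 5 FPKM, 81 higher and 25 lower at 3-fold, and 435 higher and 338 lower at 1.5-fold. Of the other list medians 6 of 108 alternative values moved by over 1.5-fold. Depth is known only as an estimate, and the spread between libraries is unknown.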
